A study of Mus musculus with 23 samples.

Results

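The antigen presentation genes are the protein-coding genes of mouse liver whose symbol starts with H2-, together with Cd74, Ciita, B2m, Tap1, Tap2, Tapbp, Psmb8, Psmb9, Psmb10, Nlrc5, Ubd, Cd80, Cd86 and Cd40. They were chosen by symbol and by being listed in both deposited tables, which gave 42 genes of the 22852 that the tables share. A further 2 genes, H2-M5 and H2-M9, met the rule in the female table only, with at most 2 counts in any sample, and were not used. Read counts per gene came from whole liver of 23 mice in 4 groups: 5 B100-Control males, 6 B100-LKO males, 6 B100-Control females and 6 B100-LKO females. All 4 groups carried B100, were fed WD for 16 weeks and were in the fed state at necropsy, and LKO is read here, from the series' title, as loss of Cpt1a in the liver. The labels name neither the promoter that drives the deletion nor the age of the mice, and they do not expand WD. Replicates are named by the numbers in the labels, and p-values measure the spread between these samples.

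Major histocompatibility complex (MHC) class I molecules show peptides from inside the cell to CD8 T cells. Nearly all nucleated cells carry them as a heavy chain paired with B2m. Class II molecules show peptides taken up from outside the cell to CD4 T cells, and in liver they are known mainly from macrophages, dendritic cells and B cells. Class II chains are assembled on the invariant chain Cd74 and loaded with peptide by H2-DM, and their transcription is switched on by Ciita. Nlrc5 is the counterpart of Ciita for class I, and interferon gamma raises both branches.

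The members lie mostly together in the genome: 34 of the 42 are on chromosome 17, which carries the mouse MHC. RefSeq promoter windows in build GRCm38.p6 were found for 30 of the 42 members, and the 250 bases before the annotated start were searched on both strands for 5 motifs. The Y box core GATTGG, a part of the promoter module read by the class II enhanceosome, was in the window of 21 of the 30 members and in 14.6% of all 32851 windows. The X2-like motif TGNGTCA was in 7 members and 12.96% of all windows, the interferon-stimulated response element (GAAA, any 2 bases, GAAA) in 3 members and 2.98%, the kappa B motif (GGGATT followed by CCCC) in 3 members and 0.0852%, and the gamma-activated site TTCNNNGAA in 3 members and 7.02%. None of these motifs contains another, and a match describes letters only. The first set below holds the 180 bases before the start of H2-Aa, H2-Eb1, H2-DMb1, H2-DMb2 and Ubd. The Y box core is in capitals (CCAATC where it lies on the other strand), and every stretch shown holds it. H2-Aa, H2-Eb1 and Ubd are among the genes called in females below, and H2-Ab1 and Cd74, also called, had no window. H2-DMb1 and H2-DMb2 are H2-DM genes, and H2-DMa, with no core within 180 bases in either window, is not shown. H2-Aa is at chr17:34287824-34288003 on the minus strand, and H2-Eb1 is at chr17:34305687-34305866, H2-DMb1 at chr17:34153011-34153190, H2-DMb2 at chr17:34145069-34145248 and Ubd at chr17:37193712-37193891 on the plus strand.
H2-Aa: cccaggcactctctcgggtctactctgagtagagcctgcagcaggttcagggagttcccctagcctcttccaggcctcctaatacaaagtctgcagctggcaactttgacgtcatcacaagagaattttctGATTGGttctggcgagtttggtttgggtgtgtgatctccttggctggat
H2-Eb1: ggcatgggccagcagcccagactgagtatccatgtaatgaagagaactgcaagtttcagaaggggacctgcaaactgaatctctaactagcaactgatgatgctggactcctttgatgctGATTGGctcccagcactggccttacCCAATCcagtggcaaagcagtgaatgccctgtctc
H2-DMb1: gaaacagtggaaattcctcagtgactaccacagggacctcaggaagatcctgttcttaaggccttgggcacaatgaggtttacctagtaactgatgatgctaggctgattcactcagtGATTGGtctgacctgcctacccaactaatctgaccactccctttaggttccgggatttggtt
H2-DMb2: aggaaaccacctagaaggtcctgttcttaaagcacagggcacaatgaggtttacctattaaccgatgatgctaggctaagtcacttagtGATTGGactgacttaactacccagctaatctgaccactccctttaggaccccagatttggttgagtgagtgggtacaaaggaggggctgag
Ubd: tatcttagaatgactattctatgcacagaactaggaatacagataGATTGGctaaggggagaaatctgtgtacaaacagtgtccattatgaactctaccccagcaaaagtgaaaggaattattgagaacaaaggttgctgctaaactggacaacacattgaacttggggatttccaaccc

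The core starts at position -49 from the start of H2-Aa, at -60 and, on the other strand, -35 in H2-Eb1, and at -62 in H2-DMb1. It lies at -91 in H2-DMb2, at -44 in H2-Oa, at -58 in H2-Ob and at -101 in H2-Eb2. In H2-DMa it was found in 1 of 2 windows, at -199, and in Ubd at -135 and at -223, the latter outside the stretch shown. The next set shows the classical class I genes for contrast, with the kappa B motif in capitals in both and the Y box core in H2-D1 as well. H2-K1 has 2 annotated starts: the stretch shown precedes the upstream one, where the searched bases hold no core, and before the other start the core lies at -6 on the opposite strand. H2-K1 is at chr17:34000348-34000527 on the minus strand and H2-D1 at chr17:35262914-35263093 on the plus strand.
H2-K1: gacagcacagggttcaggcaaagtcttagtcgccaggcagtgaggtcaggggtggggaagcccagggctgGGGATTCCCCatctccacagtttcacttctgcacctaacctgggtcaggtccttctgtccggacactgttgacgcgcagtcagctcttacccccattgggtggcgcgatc
H2-D1: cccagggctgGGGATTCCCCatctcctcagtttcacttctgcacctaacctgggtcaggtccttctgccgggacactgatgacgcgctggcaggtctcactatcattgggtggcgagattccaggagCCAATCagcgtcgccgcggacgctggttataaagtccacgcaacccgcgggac

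Total counts ran from 14224665 to 19626662 per sample, and the members took 0.832 to 1.19 percent of them. Cpt1a, the targeted gene, had 17.6% of the control CPM (read counts scaled to a common library size with TMM factors, within each table) in LKO males and 19.6% in LKO females, with no overlap between the groups in either sex. Of the hepatocyte markers, Alb stood at 34431 CPM or more in every sample, so the labelled tissue matched its markers. Reads of the closely related H2-Q, H2-T, H2-K1 and H2-D1 genes, and of H2-DMb1 and H2-DMb2, can be split between copies, so their counts are uncertain. In whole liver, more cells of a type and more RNA per cell cannot be told apart.

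Per length, class I dominated. Mean FPKM, which divides by gene length and library size, over all 23 livers was 1893 for B2m, 758 for H2-K1, 733 for H2-Q10 and 428 for H2-D1. Cd74 followed at 144, ahead of H2-T23 at 119, and the class II chains stood at 42.7 for H2-Eb1, 34.8 for H2-Ab1 and 21.2 for H2-Aa. Lower in the order stood Ubd at 4.69, Nlrc5 at 1.84, Cd86 at 1.30, Cd40 at 0.399, Cd80 at 0.256 and Ciita at 0.242. H2-M10.6, H2-M2, H2-T3, H2-Eb2 and H2-Ke6 were too low for the filter on low counts, which left 37 of the 42 members for the tests in each sex.

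In LKO females, the class II chain genes and Ubd rose. edgeR's quasi-likelihood test called 5 of the 37 tested members at an adjusted p under 0.05, all higher, where 1.42% of all 13684 tested genes were called, 0.928% higher and 0.49% lower. At an unadjusted p under 0.05 there were 12 of 37 members beside 15.6% of all genes. The 5 were all 4 tested genes of the class II chain group, namely H2-Aa, H2-Ab1, H2-Eb1 and Cd74, and the ubiquitin-like modifier Ubd. No member was called lower. The members' median log2 fold change was 0.05 beside 0.01 for all genes tested, and 21 members had a positive and 16 a negative value. Without LKO female replicate 3 the members' median was -0.02, with 17 positive and 20 negative, and without control female replicate 6 it was 0.09. The plot of log2 fold changes by role shows these 5 genes with the highest values in females, without a clear gap below them. H2-DMb1 at 0.68 and Ciita at 0.67, neither called, came next after Cd74 at 0.82.

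**Figure D1:**
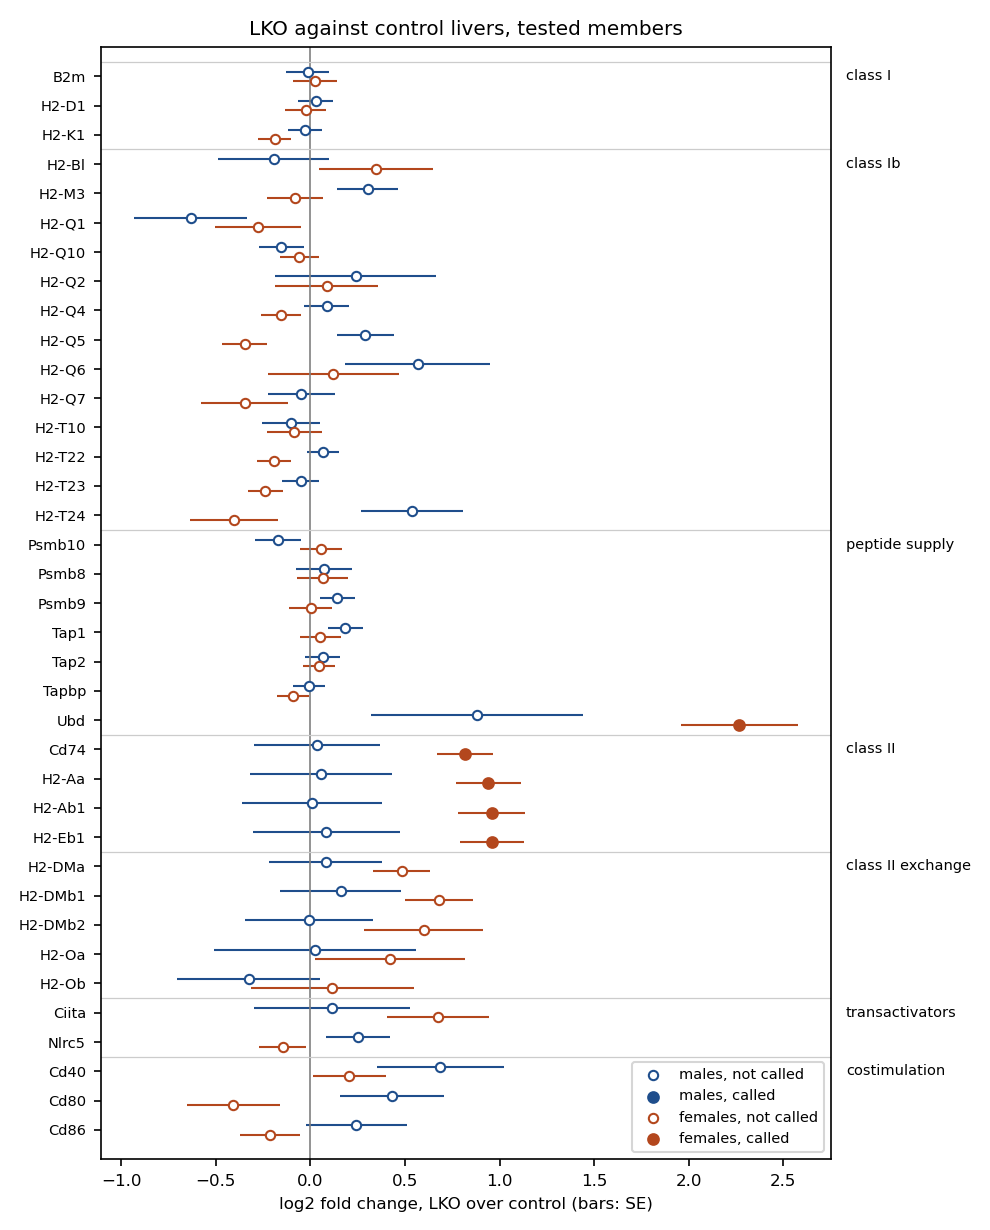
Log2 fold change (LKO over control, horizontal axis) with its standard error for the 37 tested members, grouped by role, in males (blue) and females (orange); filled points passed an adjusted p under 0.05. The 5 filled points are Ubd at 2.27 and the 4 class II chain genes between 0.82 and 0.96, all in females.

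H2-Aa encodes the alpha chain of the I-A class II molecule. Its CPM in control females had a lowest value of 41.6, a median of 46.2 and a highest of 58.7, and in LKO females 56.1, 89.9 and 137. In all, 5 of the 6 LKO females lay above every control female, and LKO female replicate 6, the lowest, lay within the control range. The log2 fold change was 0.94 (SE 0.17, edgeR adjusted p = 0.0143).

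H2-Ab1, the beta chain partner of H2-Aa, ranged from 44.6 to 65.2 CPM in control females with a median of 50.1, and from 57.7 to 148 in LKO females with a median of 96.4. Again 5 of 6 LKO females exceeded all controls, and the log2 fold change was 0.96 (SE 0.18, edgeR adjusted p = 0.0155). H2-Eb1, the beta chain of the I-E molecule, had a lowest, median and highest CPM of 41.5, 48.8 and 59.7 in control females and 55.1, 97.8 and 139 in LKO females. It rose by 0.96 on the log2 scale (SE 0.17, edgeR adjusted p = 0.0125), with 5 of 6 LKO females above all controls.

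Cd74, the invariant chain that escorts class II molecules to the loading compartment, was the most abundant of the 4. Control females had 139, 159 and 188 CPM as the lowest, median and highest value, and LKO females 174, 269 and 377. The rise was 0.82 on the log2 scale (SE 0.15, edgeR adjusted p = 0.0146), and 5 of 6 LKO females were above all controls. LKO female replicate 3 was the highest and replicate 6 the lowest of the LKO females for all 4 genes.

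**Figure D2:**
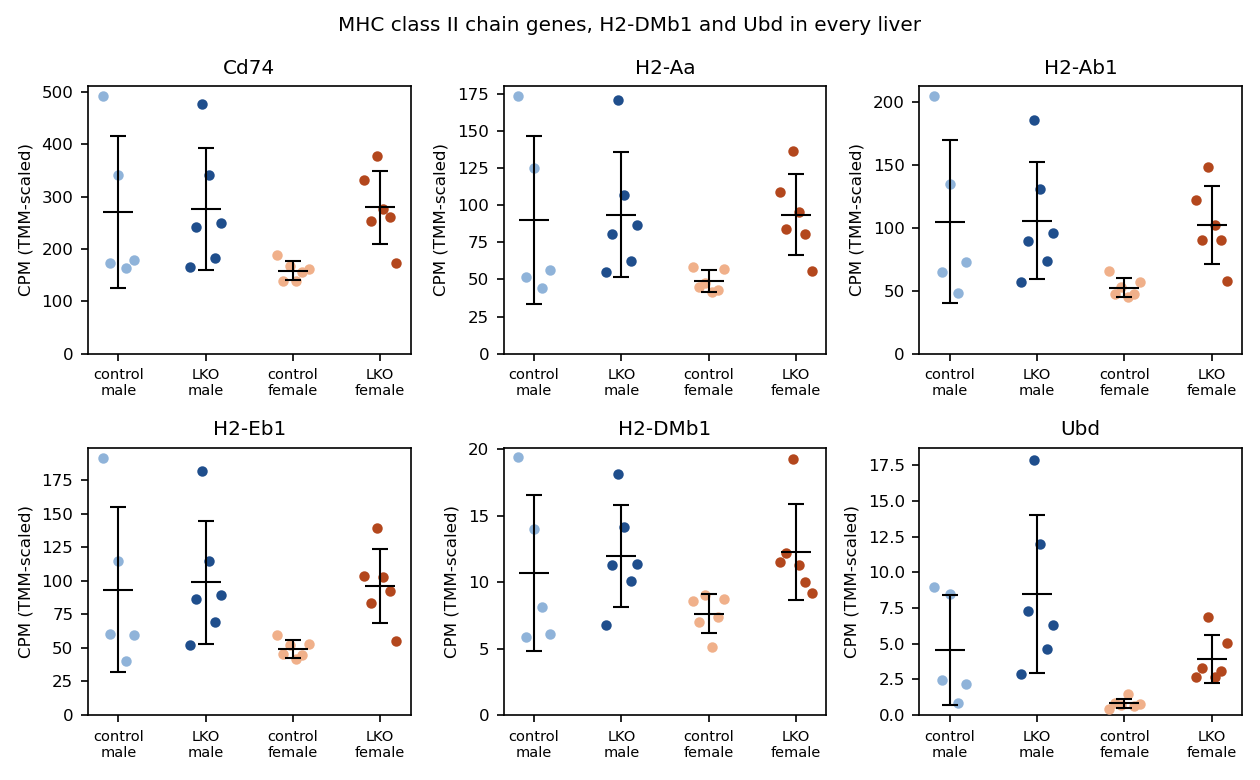
CPM (vertical axis, TMM-scaled, from 0) of the class II chain genes, H2-DMb1 and Ubd in every liver, by group; each point is 1 mouse, the wide bar is the mean and the whiskers are 1 SD. In females, H2-DMb1 and Ubd do not overlap between LKO and control, while control males spread widely, from 48.1 to 204 CPM for H2-Ab1.

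Ubd (FAT10) is a ubiquitin-like protein that marks proteins for the proteasome and is inducible by interferon gamma and tumour necrosis factor. It was low: control females had 7 to 23 counts and LKO females 42 to 110. In CPM the lowest, median and highest were 0.424, 0.726 and 1.44 in control females and 2.67, 3.17 and 6.83 in LKO females, so the groups did not overlap. The log2 fold change was 2.27 (SE 0.31, edgeR adjusted p = 0.00307), the largest of any tested member in either sex.

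With any 1 library left out, edgeR called the same 5 genes in all 12 fits. The class II calls were not kept in every alternative. An edgeR fit of all 23 samples took its spread from both sexes and tested 14503 genes rather than 13684. There Ubd was called at an adjusted p of 0.0446, and the 4 class II chain genes were not, at 0.136 to 0.146. Their log2 fold changes in that fit were 0.82 to 0.96, and the cause of the lost calls was not tested.

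Of the peptide exchange genes, H2-DMa and H2-DMb1 encode the chains of H2-DM, and H2-Oa and H2-Ob those of H2-DO, which restrains H2-DM. In females all 5 peptide exchange genes, with H2-DMb2, had a positive log2 fold change, with a median of 0.48. edgeR called none of them, and H2-DMa and H2-DMb1 had an unadjusted p under 0.05. H2-DMb1 had a lowest, median and highest CPM of 5.14, 7.96 and 8.99 in control females and 9.21, 11.4 and 19.3 in LKO females. The groups did not overlap, and the log2 fold change was 0.68 (SE 0.18, edgeR adjusted p = 0.0741). With DESeq2's Wald test it was called, which made 6 members called there, all higher, beside 2.23% of all genes that test could assess. The authors' deposited table called 6 of the 42 members in females, all higher, beside 2.22% of its genes, and H2-DMb1 was among them at an adjusted p of 0.0159. That table and the DESeq2 test used the same counts and each called 554 genes, so the table is not a separate support. Over the tested members, 2 of 37 had groups that did not overlap in females, H2-DMb1 and Ubd, where 1.59% of all tested genes were without overlap and 1.05% were so with LKO higher. H2-DMa stood at 0.48 (SE 0.15, edgeR adjusted p = 0.129) and H2-DMb2 at 0.60 (SE 0.31, edgeR adjusted p = 0.377).

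No class I chain was called in females. None of the 2 classical chains, B2m or the 13 tested class Ib chains was called by edgeR, and 10 of the 13 class Ib chains had a negative log2 fold change, with a median of -0.15. H2-K1, H2-Q5, H2-T22 and H2-T23 had an unadjusted p under 0.05, all negative, and DESeq2 called no class I chain. B2m had a lowest, median and highest CPM of 1314, 1527 and 2048 in control females and 1464, 1510 and 1973 in LKO females, a log2 difference of 0.02 (SE 0.11, edgeR adjusted p = 0.947). H2-K1, the most abundant classical chain per length, had 2211, 2369 and 2881 CPM in control females and 2027, 2159 and 2320 in LKO females. Its log2 fold change was -0.19 (SE 0.09, edgeR adjusted p = 0.314).

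Among class Ib genes, H2-Q10, a liver-made secreted class I chain, was the most abundant and stood at -0.06 (SE 0.10, edgeR adjusted p = 0.845). Its CPM had a lowest, median and highest value of 2397, 2694 and 3106 in control females and 2109, 2590 and 3061 in LKO females. H2-Q5 came closest to the threshold in this role: its CPM in control females was 8.86, 12.4 and 14.03 and in LKO females 8.28, 9.12 and 10.9, and 3 of 6 LKO females were below every control. Its log2 fold change was -0.35 (SE 0.12, edgeR adjusted p = 0.165).

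Of the genes that supply and load class I peptides, none but Ubd was called in females. Psmb10, an immunoproteasome subunit and the most abundant of this role, had 72.0, 78.2 and 91.0 CPM in control females and 68.4, 77.8 and 107 in LKO females. Tap1, which moves peptides into the endoplasmic reticulum with Tap2, had 44.8, 50.6 and 63.5 CPM in control females and 42.9, 54.8 and 65.2 in LKO females. The groups overlapped for both, at log2 fold changes of 0.05 (SE 0.11, edgeR adjusted p = 0.870 for Psmb10 and 0.873 for Tap1).

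Ciita, the class II transactivator, was at 13 to 87 counts per liver. In control females 3 of 6 livers had 0.849 to 0.995 CPM and the other 3 had 2.13 to 2.35, and in LKO females the lowest, median and highest were 2.24, 2.50 and 3.23. The log2 fold change was 0.67 (SE 0.27, edgeR adjusted p = 0.240), with an unadjusted p under 0.05. In all, 4 of 6 LKO females were above every control female. Nlrc5 had 15.5, 19.6 and 23.4 CPM in control females and 14.4, 17.4 and 21.2 in LKO females, and its log2 fold change was -0.15 (SE 0.12, edgeR adjusted p = 0.625).

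Cd80 and Cd86, which bind CD28 on T cells, and Cd40, which binds the CD40 ligand, were not called in females. Cd86, the most abundant of them, had 4.32, 5.81 and 8.73 CPM in control females and 4.22, 5.13 and 6.02 in LKO females. Cd80 stood at 0.796, 1.09 and 1.503 against 0.497, 0.867 and 1.16. Log2 fold changes were -0.21 for Cd86, -0.41 for Cd80 and 0.21 for Cd40, with edgeR adjusted p from 0.460 to 0.674.

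In males no member was called. edgeR called 0 of 37, none had an unadjusted p under 0.05, and DESeq2 called 0 beside 0.438% of all genes. The authors' deposited table called 0 of 42 beside 0.438% of its genes, and it too is not separate from the DESeq2 test. Over all 13805 genes tested in males, 0.00724% were called by edgeR and 12.5% had an unadjusted p under 0.05. None of the 37 members had groups that did not overlap, where 1.77% of all genes were without overlap. The members' median log2 fold change was 0.07 beside 0.01 for all genes. That median moved to 0.00 when LKO male replicate 3 was left out, and to 0.21 when control male replicate 1 was.

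The class II chain genes spread widely within each male group. H2-Ab1 CPM in control males was 204 in replicate 1, 64.5 in replicate 2, 134 in replicate 3, 48.1 in replicate 4 and 72.4 in replicate 6. LKO males had a lowest value of 57.1, a median of 92.6 and a highest of 186, so the groups overlapped. Its log2 fold change was 0.01 (SE 0.37, edgeR adjusted p = 0.994).

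Cd74 CPM in control males was 493, 173, 342, 163 and 180 in replicates 1, 2, 3, 4 and 6, and LKO males ran from 165 to 478 with a median of 245. H2-Aa was at 174, 51.9, 125, 44.0 and 56.3 in those replicates and at 54.9 to 171 in LKO males, with a median of 83.6. H2-Eb1 was at 191, 60.5, 115, 40.4 and 59.3, and at 51.9 to 182 in LKO males, with a median of 87.9. For all 4 genes, control male replicates 1 and 3 were the highest of their group and replicate 4 the lowest, and LKO male replicates 3 and 4 were the highest and replicate 1 the lowest. Log2 fold changes were 0.03 to 0.08 for these 3 genes (edgeR adjusted p 0.955 to 0.982).

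The 4 genes kept nearly fixed proportions across livers. Over the 23 livers, H2-Aa spanned 4.18-fold from the lowest to the highest, while the CPM ratio of H2-Ab1 to H2-Aa stayed between 0.997 and 1.29 and that of Cd74 to H2-Aa between 2.73 and 3.70. Summed CPM of the 4 genes was 295 to 1062 in control males, 329 to 1017 in LKO males, 267 to 371 in control females and 343 to 801 in LKO females. Summed CPM of H2-K1, H2-D1 and B2m ran from 4415 to 6354 over all 23 livers.

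Ubd in control males was 8.97, 2.44, 8.51, 0.809 and 2.16 CPM in replicates 1, 2, 3, 4 and 6, and in LKO males 2.85 to 17.9 with a median of 6.80. LKO male replicates 3 and 4 were the highest. The log2 fold change was 0.88 (SE 0.56, edgeR adjusted p = 0.549).

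Other members named for males had overlapping groups. H2-Q1 had the lowest p of any member, at -0.63 on the log2 scale (SE 0.30, edgeR adjusted p = 0.408): control males had 46.1, 36.8, 46.7, 9.39 and 33.1 CPM in replicates 1, 2, 3, 4 and 6 and LKO males 15.9 to 26.1 with a median of 24.1. Replicate 4 was the control that fell below all LKO males. Cd40 stood at 0.69 (SE 0.34, edgeR adjusted p = 0.429), with 0.702 to 1.32 CPM in control males and 0.611 to 2.40 in LKO males. Tap1 stood at 0.18 (SE 0.09, edgeR adjusted p = 0.443) and Nlrc5 at 0.25 (SE 0.17, edgeR adjusted p = 0.568). H2-Ob stood at -0.33 (SE 0.38, edgeR adjusted p = 0.784).

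Whether the response differed between the sexes was tested directly. The genotype by sex interaction called 0 of 38 members with edgeR, where 0% of 14503 genes were called. At an unadjusted p under 0.05 there were 6 of 38 members beside 12.9% of all genes, and DESeq2 called 0 members beside 0.315% of all genes. The female response exceeded the male one by 0.95 for H2-Ab1 (SE 0.42, edgeR adjusted p = 0.357), 0.88 for H2-Aa (0.387), 0.87 for H2-Eb1 (0.408) and 0.78 for Cd74 (0.382), on the log2 scale. For Ubd it was 1.38 (SE 0.70, edgeR adjusted p = 0.415). Without control male replicate 1 these 5 differences were 0.55, 0.50, 0.43, 0.44 and 0.99 in that order, and with LKO male replicate 3 left out they were 1.18, 1.14, 1.13, 1.01 and 1.74. Over all fits with 1 library left out, the edgeR adjusted p of the 5 ran from 0.213 to 0.706. A rise called in females and not called in males is therefore not shown to differ between the sexes. On the opposite side, H2-Q5 stood at -0.64 (SE 0.19, edgeR adjusted p = 0.208).

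Control livers of the 2 sexes differed in many members. Comparing control females with control males, edgeR called 13 of 37 tested members, 10 higher and 3 lower in females, where 18% of all 13699 genes were called, 8.8% higher and 9.2% lower. Each table holds 1 sex, so sex and table cannot be told apart, and CPM is scaled within each table. Class Ib chains made up most of the higher calls: H2-Q4, H2-Q5, H2-Q7, H2-T10, H2-T22, H2-T23 and H2-T24, 7 of 13 tested.

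H2-Q5 had 7.91, 5.59, 5.55, 6.07 and 6.14 CPM in control males and 8.86 to 14.03 in control females, and was 0.96 higher in females (SE 0.14, edgeR adjusted p = 0.000716). H2-T23, the mouse Qa-1 chain, which presents leader peptides of class I chains to natural killer cell receptors, ran from 265 to 356 CPM in control males and from 364 to 499 in control females. It was 0.47 higher (SE 0.11, edgeR adjusted p = 0.0125). The transactivator Nlrc5 had 8.31 to 14.1 CPM in control males and 15.5 to 23.4 in control females and was 0.80 higher (SE 0.15, edgeR adjusted p = 0.00342). Psmb10 and Tapbp, the bridge between TAP and the class I chain, were higher by 0.44 and 0.36 (edgeR adjusted p = 0.0191 and 0.0150). The classical chains H2-K1 and H2-D1 and their partner B2m were not called, at 0.20, 0.15 and -0.09 (edgeR adjusted p = 0.173, 0.378 and 0.685).

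Lower in control females were Ubd, H2-Ab1 and H2-Q10. Ubd ran from 0.424 to 1.44 CPM in control females and from 0.809 to 8.97 in control males, and stood at -2.46 on the log2 scale (SE 0.54, edgeR adjusted p = 0.00851). H2-Q10 ran from 2397 to 3106 CPM in control females and from 3192 to 4744 in control males, at -0.56 (SE 0.12, edgeR adjusted p = 0.00699). H2-Ab1 stood at -0.96 (SE 0.30, edgeR adjusted p = 0.0414) and lost its call in 7 of 11 fits with 1 library left out, among them that without control male replicate 1 (-0.57, edgeR adjusted p = 0.115). H2-Q7 lost its call in 7 of these 11 fits, H2-T24 in 3, and H2-T10 and Psmb10 in 1 each (highest edgeR adjusted p 0.105, 0.0548, 0.0574 and 0.0537). H2-Aa at -0.85, H2-Eb1 at -0.88 and Cd74 at -0.73 missed the threshold (edgeR adjusted p = 0.0724, 0.0680 and 0.0638). DESeq2 called all 3 (adjusted p = 0.0301, 0.0260 and 0.0268), in a count of 17 members beside 13.2% of all genes. Leaving out control male replicate 4 made all 3 edgeR calls, and leaving out replicate 2 of that group made H2-Aa and Cd74 calls. With replicate 1 of the control males left out, their values were -0.47, -0.44 and -0.40 (edgeR adjusted p = 0.228, 0.213 and 0.184). The comparison shares its control females with the LKO comparison in females, so low control females enter both.

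**Figure D3:**
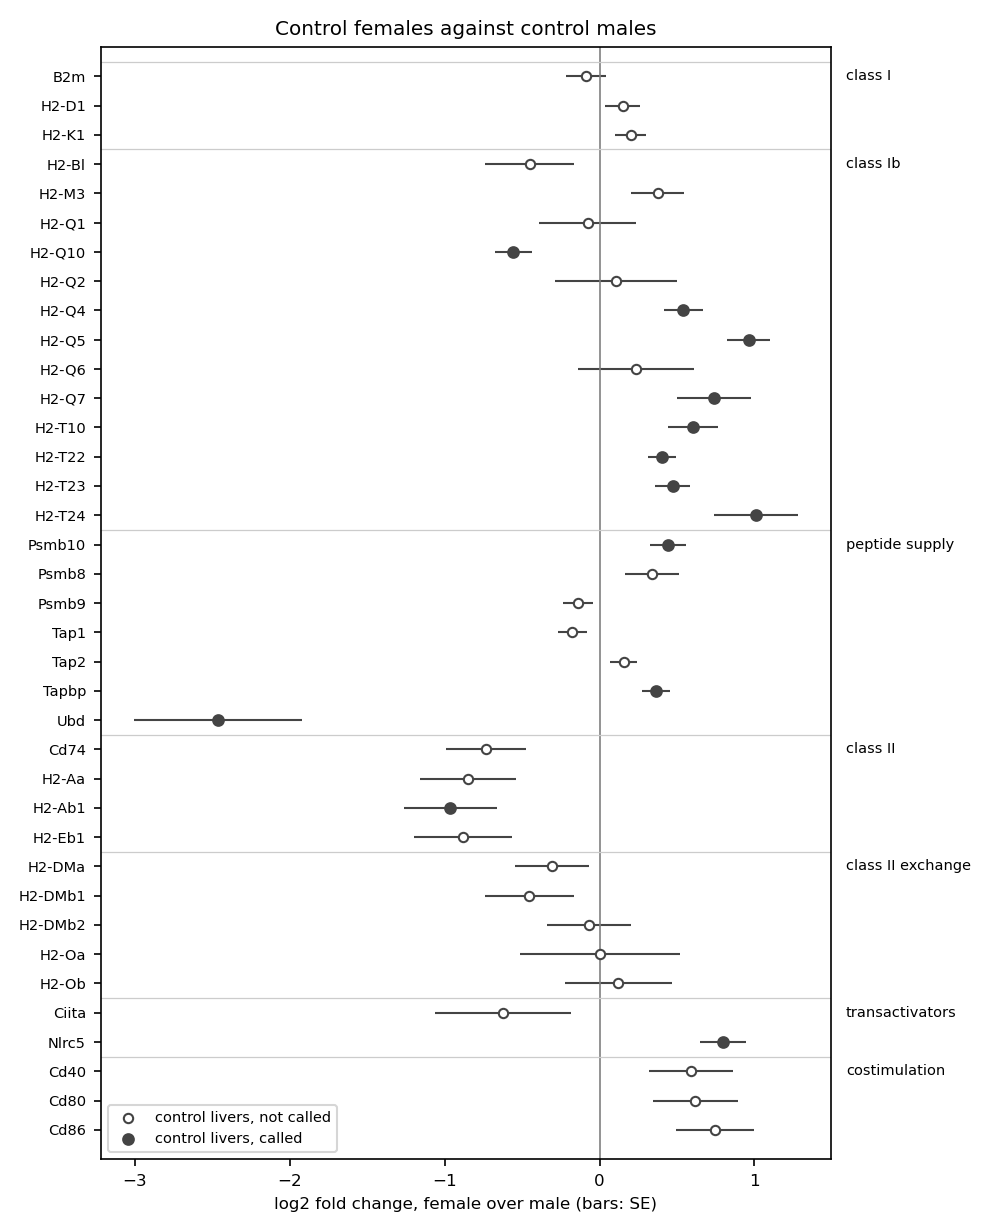
Log2 fold change (control females over control males, horizontal axis) with its standard error for the 37 members, grouped by role; filled points passed an adjusted p under 0.05. Class Ib chains from H2-Q4 to H2-T24 lie to the right and Ubd, H2-Ab1 and H2-Q10 are the filled points to the left.

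Other genes of the pathway were taken from lists of class I assembly, class II compartment, MHC gene transcription, interferon gamma signalling, non-classical presentation, co-signalling ligands and constitutive proteasome subunits, 54 genes of which 49 were tested. edgeR called 0 of them in males, 0 in females and 0 for the interaction, with 4, 14 and 7 at an unadjusted p under 0.05 beside 12.5%, 15.6% and 12.9% of all genes, and DESeq2 called 0, 2 (Ctss and Nfyb) and 1 (Cst3). Between control sexes edgeR called 4 higher and 5 lower in females, 9 of 49 beside 18% of all genes. In LKO against control females the lowest p of the class II compartment list was that of Ctss, a cathepsin that trims the invariant chain: 47.7, 58.7 and 73.2 CPM in control females against 68.3, 75.4 and 85.4 in LKO females, 0.34 higher (SE 0.09, edgeR adjusted p = 0.0864). The next genes had the lowest p of their lists between control sexes. Rfx5, a factor that binds MHC promoters, was 0.93 higher in control females than in control males (edgeR adjusted p = 0.00163), and Igtp, an interferon-inducible GTPase, was 1.34 higher (edgeR adjusted p = 0.000563). Erap1 and Cd1d1 were higher by 0.48 and 0.55 (edgeR adjusted p = 0.00335 and 0.00327). Psmb5 and Cst3 were lower, at -0.55 and -0.34 (edgeR adjusted p = 0.000534 and 0.0201). Also called lower were Psmb7, Marchf8 and Ifngr2, the last from the same list as Igtp, at -0.45 (edgeR adjusted p = 0.0106).

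Markers of cell types that carry class II were set beside these values. These lists, like the pathway lists, were chosen with earlier results of these data known, so they are not separate support. In females edgeR called 4 of 7 lipid-associated macrophage markers higher (Mmp12 at 2.50, Gpnmb at 3.22, Trem2 at 1.32 and Spp1 at 0.66). Of these 7 markers, 5 had a positive and 2 a negative log2 fold change, and 6 had an unadjusted p under 0.05. Each of the 4 called markers was higher in every LKO female than in any control female, as were 1.05% of all tested genes. The highest control and lowest LKO CPM were 2.30 and 5.16 for Gpnmb, 2.81 and 6.11 for Mmp12, 4.20 and 5.52 for Trem2, and 41.2 and 43.5 for Spp1. Ccr2, a monocyte receptor, was called higher at 1.35 (edgeR adjusted p = 0.0218), 1 of 11 general macrophage and monocyte markers. None was called among 6 Kupffer cell markers, all 6 negative, 7 tested dendritic cell markers and 5 tested B cell markers. At an unadjusted p under 0.05 these 3 lists had 0, 2 and 1 markers, where 15.6% of all genes passed. DESeq2 called Itgax, a dendritic cell and macrophage marker, and none of the other Kupffer, dendritic or B cell markers. Summed CPM was 93.9 to 279 in control and 151 to 216 in LKO females for lipid-associated macrophage markers, where control replicate 2 stood at 279 and the other 5 controls, at 141 or less, lay below every LKO female. It was 13.9 to 21.2 in control against 19.7 to 29.0 in LKO females for dendritic cell markers. For Kupffer cells it was 428 to 857 against 483 to 825 and for T and NK cells 3.19 to 8.86 against 4.80 to 19.3. LKO female replicate 6, the lowest of its group for the class II chain genes, had its highest dendritic cell and Kupffer cell sums, 29.0 and 825. LKO female replicate 3, the highest for those genes, stood at 152 for the sum of all 7 lipid-associated macrophage markers, near the low end of its group. B cell markers summed to 21.3 to 30.3 in control and 17.02 to 479 in LKO females, where replicate 5 stood alone at 479 and the next was 48.1. Ighm, 1 of these 6 markers, made up 445 of the 479 CPM in that liver. The 5 members called in females were also called without that liver. No marker of these lists was at 0 in every sample of a group. The part of these cell types in the class II rise was not tested.

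In males, edgeR called 0 of 68 tested markers, with 9 at an unadjusted p under 0.05 beside 12.5% of all genes, and DESeq2 called 1, Fabp5. LKO male replicate 3, the highest of its group for the class II chain genes, also had the highest summed markers of lipid-associated macrophages (391), dendritic cells (32.1) and B cells (62.5). Control male replicate 1, highest for class II, had the highest dendritic cell sum of its group, 28.5, and replicate 3 the highest lipid-associated macrophage sum, 346. Replicate 4 of that group, lowest for H2-Aa, H2-Ab1, H2-Eb1 and Cd74, had its lowest lipid-associated macrophage sum, 106. The same liver had the group's highest Kupffer cell sum, 526, and its highest general macrophage and monocyte sum, 948. The part of these cells in the spread among males was not tested. Between control sexes edgeR called 13 of 63 tested markers beside 18% of all genes. Lower in control females were 3 of 7 lipid-associated macrophage markers (Gpnmb at -3.76, Mmp12 at -2.49 and Spp1 at -0.91) and Ccr2 at -1.35. Higher were 4 of 6 Kupffer cell markers, with all 6 positive, Csf1r at 0.60, 3 hepatocyte markers and 1 endothelial marker. Their part in the member differences between control sexes was not tested. The plot of marker sums shows which livers stood apart.

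**Figure D4:**
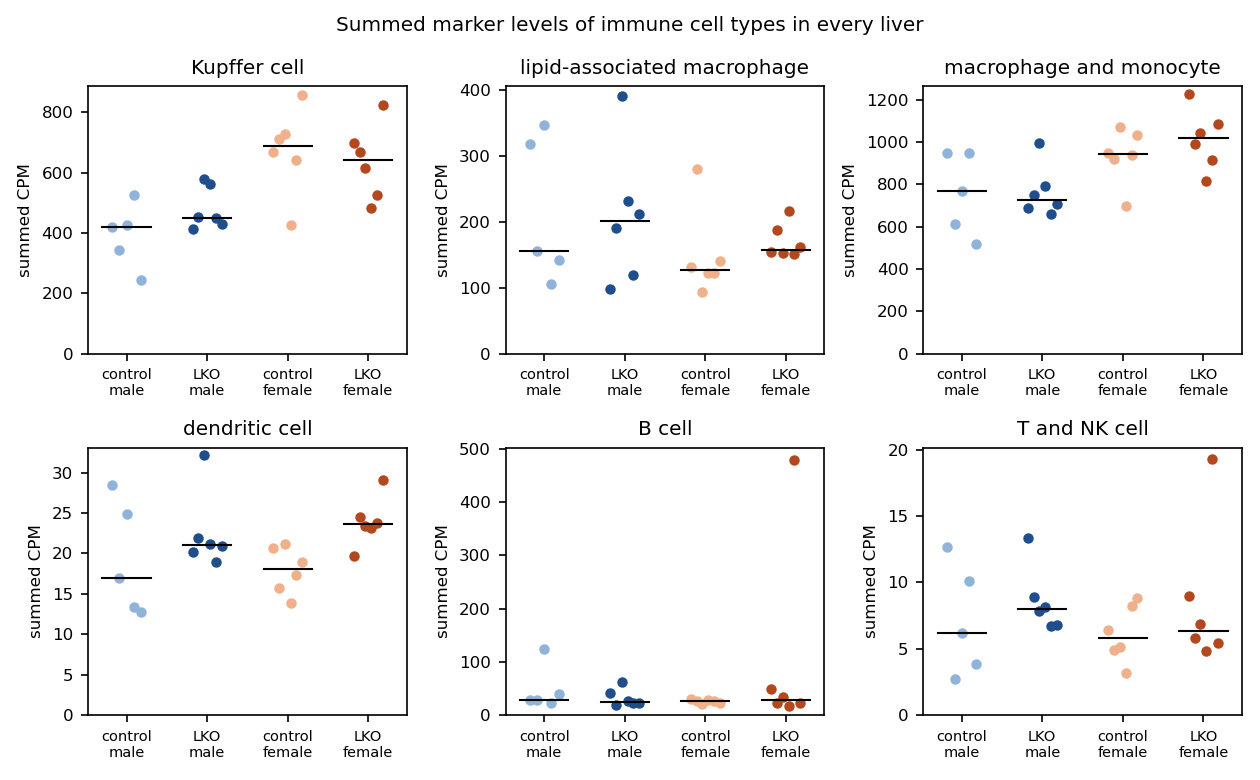
Summed CPM (vertical axis, from 0) of the markers of 6 immune cell types in every liver, by group; each point is 1 mouse and the bar is the median. B cell markers reach 479 CPM in 1 LKO female, 445 of it from Ighm, and dendritic cell markers lie at 19.7 CPM or more in all LKO females.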

How the data were processed

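Bulk liver RNA was measured in 23 mice in 4 groups by sex and genotype. Per the labels' protocols, libraries were made from poly-A RNA with random priming and dUTP. The submitters' processing notes name HISAT2 2.0.5 and mm39, without saying how they were used. The counter, the annotation release and any use of strand in counting are not given in the sources used here, which leaves overlapping and antisense genes uncertain. For each sex the authors deposited a table with raw counts per gene, FPKM, and their own log2 fold changes and adjusted p-values. No sample column was left unmapped.

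From the counts, edgeR 4.0.16 in R 4.3.3 was run on all genes of each table (filterByExpr, TMM, quasi-likelihood test, Benjamini-Hochberg over all genes tested, called at an adjusted p under 0.05). The interaction used all 23 samples and the sex comparison the 11 controls, over genes in both tables. For Cpt1a, log2(CPM + 1) was also permuted exactly, two-sided (exact p = 0.00216 in each sex, the smallest possible). Alternatives were RLE factors, library size alone, no filter, at least 10 counts per sample, DESeq2 1.42.0, a replicate block, all samples in 1 fit, and leaving out each sample. The edgeR script was tested on simulated data. Members called within a sex, the member with the lowest p in each role and sex, and the most abundant per role were described by sample, others by range and count. Members and lists were chosen with earlier results of these data known. Marker lists also covered neutrophils, sinusoidal endothelium, cholangiocytes, stellate cells and hepatocytes, of which edgeR and DESeq2 called 0 in either sex between genotypes. By edgeR, 5 of these in each sex had an unadjusted p under 0.05, beside 12.5% of all genes in males and 15.6% in females. Promoter sequences are RefSeq's, in GRCm38.p6.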

Additional observations from a re-analysis of the deposited data

Results flagged for a closer look

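In each group the highest and lowest liver of every tested member was compared with the rest by Dixon's ratio. It singled out 11 of 148 sets of member and group, where chance gives about 5 percent.

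LKO female replicate 5 stood apart for 3 genes of the class II branch: Ciita at 3.23 CPM beside 2.24 to 2.53 in the other LKO females, H2-DMb2 at 5.73 beside 1.37 to 2.49, and H2-Ob, the H2-DO beta chain known from B cells, at 6.12 beside 0.810 to 2.46. The same liver had the highest summed B cell markers, 479 CPM, of which 445 were Ighm. It also had the highest summed T and NK cell markers, 19.3 CPM. The part of these cells in the values of the 3 genes was not tested. Control male replicate 3 stood apart for H2-Ob, at 3.92 CPM beside 1.05 to 1.88, and had the highest B cell sum of its group, 124 CPM. Of that sum, 107 CPM were Ighm. LKO female replicate 3 stood apart for H2-DMb1, at 19.3 CPM beside 9.21 to 12.1. LKO male replicate 3, the highest of its group for class II, had 5.09 CPM of Ciita beside 1.77 to 3.001 and 81.2 CPM of H2-Q4 beside 54.1 to 63.3. Control male replicate 1 had 7.91 CPM of H2-Q5 beside 5.55 to 6.14 and 4.33 CPM of H2-Q6 beside 0.891 to 1.81. Control female replicate 6 had 68.9 CPM of Psmb8 beside 40.2 to 46.1. LKO female replicate 4 was low for Tap2, at 32.8 CPM beside 41.3 to 45.2.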

How the results depend on the processing

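The count of members called was 0 in males and 0 for the interaction under every alternative run. In females it was 4 to 6 except in the fit of all samples, where it was 1, and between control sexes it was 12 to 17 with all libraries (17 with DESeq2, 11 higher and 6 lower) apart from the replicate block, which gave 5, all higher in females, and lost Ubd, H2-Ab1 and H2-Q10 (adjusted p = 0.100, 0.0857 and 0.0893). Leaving out 1 library gave 9 to 16 calls between control sexes, 9 without control male replicate 3. Among male log2 fold changes that no fit called, the sign changed for B2m (0.051 with library size alone, 0.025 with the replicate block) and H2-K1 (0.027 with library size alone). With 1 library left out, male values ran from -0.063 to 0.055 for B2m, -0.18 to 0.37 for Cd74, -0.15 to 0.56 for Ciita, -0.19 to 0.44 for H2-Aa, -0.22 to 0.40 for H2-Ab1, -0.17 to 0.52 for H2-Eb1, -0.059 to 0.015 for H2-K1 and -0.53 to 0.12 for H2-Ob. Female values ran from -0.036 to 0.12 for B2m, -0.51 to 0.29 for H2-Ob, -0.033 to 0.10 for Psmb10 and -0.011 to 0.12 for Tap1. H2-Ob in females was -0.11 with the replicate block and -0.51 without LKO female replicate 5. Same-numbered samples correlated at 0.01 to 0.17 in females and -0.32 to 0.39 in males, not all over 0.1, so the numbers were not taken to pair samples; the block made 6 calls in females, adding H2-DMb1. Ubd could not be tested at 10 counts in every sample. The cause of these changes was not tested.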
